A study of Mus musculus with 5 samples.

Results

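Matrix proteases and their inhibitors were followed gene by gene through single-cell RNA counts of mouse liver non-parenchymal cells. The members were all genes whose symbol was Mmp, Adam, Adamts or Timp followed by a number, which gave 67 of the 19736 genes with a column in any library: 21 Mmp, 23 Adam, 19 Adamts and 4 Timp genes. The rule used gene symbols and no measured value, but it was set with earlier results of these data known. The libraries held columns for 65, 61, 58, 60 and 62 of them, and an absent gene was counted as 0. All cells were from wild-type male mice, which had surgery when 9 weeks old and whose livers were taken after 2 further weeks. In the pIVCL group the inferior vena cava had been partially ligated, a model of liver congestion, and the control group had sham surgery. There were 2 sham libraries and 3 pIVCL libraries. Both sham libraries and pIVCL 1 carried the batch label 2021.3, and pIVCL 2 and pIVCL 3 the label 2021.7, so a comparison inside 1 batch has pIVCL 1 as its single ligated library, and values within batch 2021.3 are given without a test. The labels name a mouse for each sample without saying that no mouse gave more than 1, and the p-values therefore reflect how far these libraries spread, which may be technical.

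Matrix metalloproteinases (Mmp) are zinc enzymes that cut collagens and other matrix proteins, either after secretion or at the cell surface. Adam proteins are membrane-anchored relatives, several of which release the outer parts of receptors and ligands, and Adamts proteins are secreted enzymes that process proteoglycans and procollagens. The tissue inhibitors of metalloproteinases (Timp) bind and block these enzymes, and Timp2 also takes part in the activation of pro-Mmp2 by Mmp14. In liver, stellate cells and fibroblasts are known sources of matrix and of many of these genes.

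Quality filters and the removal of likely doublets left 16672 of 19815 cells, between 2523 and 4308 per library, and 13 cell classes were named from markers that included no member. Median depth was 5400 and 5099.5 molecules per retained cell in sham and 4222, 4336 and 2888 in pIVCL. Endothelial cells (8869), Kupffer cells (2174), stellate cells (815), T cells (744), conventional dendritic cells (398), macrophages other than Kupffer cells (291) and NK cells with ILC1 (217) had at least 20 cells in every library and were tested. Fibroblasts (108), mesothelial cells (99), monocytes (164), neutrophils (59), B cells (663) and hepatocytes (510) did not, and their levels are described only. Summed over each list, endothelial markers were at 20184 to 22267 molecules per 1000000 molecules of the class (CPM) in endothelial cells, Kupffer markers at 22469 to 28532 in Kupffer cells and stellate markers at 26951 to 39893 in stellate cells. Fibroblasts also held stellate markers, at 24474 to 30092. Pairs of libraries shared 8 to 30 cell indices. Sham 2 and pIVCL 1 shared 24 where chance gives 12.3, sham 1 and pIVCL 3 shared 30 where it gives 17.9, and the other pairs were nearer to or below their number. In bulk sums of a class, fewer expressing cells and less RNA per cell cannot be told apart.

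The 67 members gave 229162 molecules in the files and 213082 in retained cells. They were spread unevenly: 28 members had fewer than 100 molecules in all 5 libraries together, and 31 members passed the filter on low counts in no tested class (13 Adam, 8 Adamts, 9 Mmp and 1 Timp gene, each with at most 1112 molecules). The other 36 were tested in at least 1 class, in 92 tests over 7 classes. A mean of at least 30 CPM in a tested class was reached by 24 members. Molecules are counts of captured transcripts without a correction for gene length, so levels are set side by side between classes and libraries of 1 gene, not between genes.

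**Figure D1:**
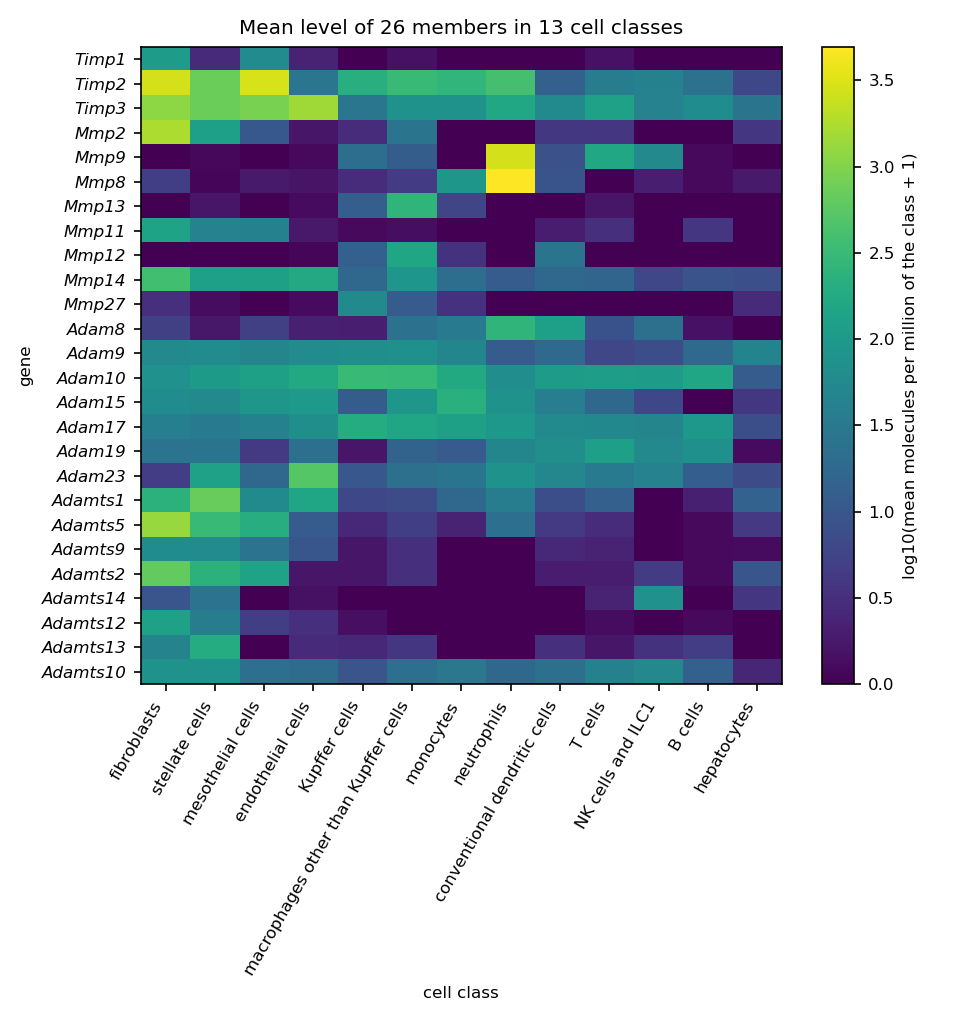
Mean level over libraries of 26 members (rows) in 13 cell classes (columns), as log10 of CPM plus 1. Timp2, Mmp2, Adamts2 and Adamts5 are brightest in fibroblasts or mesothelial cells, Adam23 in endothelial cells, Mmp8 and Mmp9 in neutrophils and Mmp12 and Mmp13 in macrophages other than Kupffer cells.

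In endothelial cells of pIVCL livers Timp2 and Adam10, which encodes the main sheddase of Notch receptors, fell, whereas in stellate cells Timp2 rose. In endothelial cells 2 of 21 tested members passed, both lower. Of all 11343 genes tested there 5.3% passed, 2.67% lower and 2.63% higher. In stellate cells 1 of 22 passed, higher, against 0.759% of 8037 genes in either direction and 0.585% higher (0.174% lower). In Kupffer cells 0 of 17 passed in edgeR, against 0.122% of 9825 genes (0.0509% higher and 0.0712% lower), with 5 members at an unadjusted p under 0.05 (14.1% of all genes) and 1 member called by DESeq2 (0.983% of 11496 genes). The median log2 fold change of the members was -0.21 in endothelial, 0.44 in stellate and -0.11 in Kupffer cells, beside a median of 0 over all genes tested in each of the 3 classes.

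Timp2 was at 51.8 and 36.9 CPM (TMM-scaled, that is, adjusted for differences in composition between libraries) in sham endothelial cells and at 19.5, 14.9 and 14.0 in pIVCL endothelial cells. Both sham libraries were above all pIVCL libraries. The log2 fold change was -1.45 ± 0.20 (SE), a 2.73-fold fall, with an adjusted p of 0.00923 in edgeR's quasi-likelihood test. Within batch 2021.3 it was -1.19. The call was lost without sham 1 (adjusted p = 0.0914, edgeR) and without pIVCL 2 (0.0540).

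In stellate cells the order was the opposite, with Timp2 at 530 and 376 CPM in sham and at 1065, 890 and 966 in pIVCL. The groups again did not overlap. The log2 fold change was 1.09 ± 0.21, a 2.13-fold rise (adjusted p = 0.0461, edgeR), and within batch 2021.3 it was 1.23. The call was lost without sham 1, sham 2, pIVCL 2 or pIVCL 3, at adjusted p (edgeR) of 0.128, 0.442, 0.139 and 0.181, and it held without pIVCL 1 (0.0123). It was also lost at a clustering resolution of 2 (0.0545), and the direction turned to -0.38 when fibroblasts were summed in (0.525). The sham stellate cells also held more endothelial marker molecules, at 5435 and 6681 CPM over the 10 listed genes against 1150, 3985 and 4248 in pIVCL. Without a sub-cluster of 124 cells that carried most of this signal (10808 CPM), the endothelial list was at 691, 639, 719, 574 and 635 CPM, and Timp2 was at 707 and 578 in sham and 1042.5, 1050 and 1202 in pIVCL. Its log2 fold change was then 0.87 (adjusted p = 0.0428, edgeR). This subset was chosen after the data were seen. Summed over the 10 listed genes, fibroblast markers were at 15472 and 10506 CPM in sham stellate cells and at 17822, 20072 and 23075 in pIVCL. Dcn and Col1a2 are in both the fibroblast and the stellate list. The mean of Timp2 was 2823.5 CPM in fibroblasts and 738 in stellate cells. The part of fibroblast transcripts in the stellate rise of Timp2 was not tested.

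The difference between the classes was tested directly. The pIVCL effect on Timp2 was higher in stellate than in endothelial cells by 2.60 ± 0.20 on the log2 scale (adjusted p = 1.8e-07, edgeR interaction with library as a block). This was the member that passed among the 26 tested, where 92 of 11392 genes (0.808%) passed, and it passed without each library in turn. In Kupffer cells Timp2 was at 261 and 229 CPM in sham and at 224, 171 and 172 in pIVCL, a log2 fold change of -0.38 ± 0.15 that did not pass (adjusted p = 0.316, edgeR). The effect was higher in Kupffer than in endothelial cells by 1.04 ± 0.15 (adjusted p = 0.0176, edgeR), in a comparison where 0.674% of 12021 genes passed. It was higher in stellate than in Kupffer cells by 1.57 ± 0.22 (adjusted p = 0.00243, edgeR), where 0.0911% of 10975 genes passed. The Kupffer and endothelial difference was lost without sham 1 (adjusted p = 0.411, edgeR) or sham 2 (0.176), and the stellate and Kupffer difference without sham 2 (0.0547). In macrophages other than Kupffer cells Timp2 was at 453.5 and 435 in sham and at 266, 186 and 398 in pIVCL (log2 fold change -0.65 ± 0.29, adjusted p = 0.426, edgeR).

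**Figure D2:**
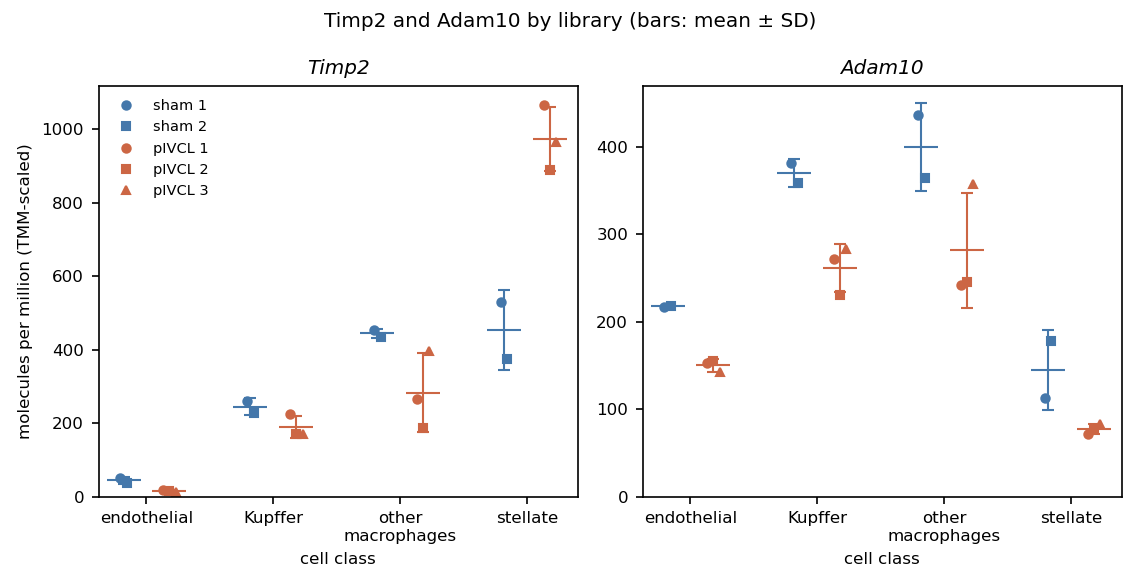
Timp2 (left) and Adam10 (right) in TMM-scaled CPM of the class, 1 point per library, with group mean ± SD, in endothelial cells, Kupffer cells, other macrophages and stellate cells. Timp2 of pIVCL lies below sham in endothelial cells (14.0 to 19.5 against 36.9 and 51.8) and above sham in stellate cells (890 to 1065 against 376 and 530).

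Adam10 was at 217 and 218 CPM in sham endothelial cells and at 153, 155 and 142 in pIVCL. The groups did not overlap, and the spread within each was small. The log2 fold change was -0.54 ± 0.11, a 1.45-fold fall (adjusted p = 0.0347, edgeR), and within batch 2021.3 it was -0.51. The call was lost without sham 1, sham 2, pIVCL 2 or pIVCL 3, at adjusted p (edgeR) of 0.311, 0.293, 0.0848 and 0.109. It was also lost with batch as a term (0.081) and with the replicate number as a block (0.18). Kupffer cells had 382 and 358 CPM in sham and 271, 230 and 283 in pIVCL, with no overlap (log2 fold change -0.50 ± 0.14, adjusted p = 0.188, edgeR). Stellate cells had 113 and 177 in sham and 72.2, 77.0 and 83.3 in pIVCL, again without overlap (-0.87 ± 0.26, adjusted p = 0.195, edgeR). In T cells the values were 139 and 134 against 120, 115 and 98.5 (-0.30 ± 0.23), and in conventional dendritic cells 96.9 and 122 against 95.2, 113 and 137 (0.07 ± 0.26). The difference of the effect between stellate and endothelial cells was -0.28 ± 0.25 (adjusted p = 0.816, edgeR), so these data do not set the classes apart for Adam10.

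Adam23, a member without the catalytic zinc-binding motif that acts in adhesion, was mainly an endothelial gene here. Endothelial cells held 89.1% of its molecules in retained cells (74.5 to 93.6% by library). It was at 746 and 754 CPM in sham endothelial cells and at 491, 407 and 257 in pIVCL, without overlap, but its log2 fold change of -0.96 ± 0.24 did not pass (adjusted p = 0.0650, edgeR). Within batch 2021.3 it was -0.62. In conventional dendritic cells Adam23 passed, as 1 of 10 tested members and lower, against 0.203% of 6399 genes in either direction (0.0313% lower and 0.172% higher). It was at 68.1 and 127 CPM in sham and at 27.2, 25.7 and 19.8 in pIVCL there (log2 fold change -2.00 ± 0.36, adjusted p = 0.0135, edgeR). Within batch 2021.3 it was -1.84, and the call was lost without sham 2 (adjusted p = 0.232, edgeR), with batch as a term (0.397) and in DESeq2 (0.109). These values rest on 116 molecules. The endothelial list of 10 genes was at 670 and 1235 CPM in sham and 684, 1725 and 380 in pIVCL dendritic cells, and its part in the Adam23 result was not tested.

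The 250 bases before the annotated start of the 3 members that passed are shown so that their promoters can be compared. They are RefSeq sequences on GRCm38.p6, while the counts were made on GRCm39. Capitals mark every match to GGGCGG (a GC box, bound by Sp1-type factors) and to CACCC (the core bound by Klf-type factors), searched on both strands.
Timp2, chr11:118355412-118355661, minus strand: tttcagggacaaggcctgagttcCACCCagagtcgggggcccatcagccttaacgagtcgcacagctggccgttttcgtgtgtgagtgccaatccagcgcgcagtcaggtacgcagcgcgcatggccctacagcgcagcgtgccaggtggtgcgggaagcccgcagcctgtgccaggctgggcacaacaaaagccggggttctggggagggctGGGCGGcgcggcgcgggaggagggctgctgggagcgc
Adam10, chr9:70678732-70678981, plus strand: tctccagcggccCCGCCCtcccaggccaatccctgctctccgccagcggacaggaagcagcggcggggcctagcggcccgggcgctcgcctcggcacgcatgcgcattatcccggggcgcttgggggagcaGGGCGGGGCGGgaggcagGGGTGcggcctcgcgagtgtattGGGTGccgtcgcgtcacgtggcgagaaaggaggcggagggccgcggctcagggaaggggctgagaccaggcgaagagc
Adam23, chr1:63445641-63445890, plus strand: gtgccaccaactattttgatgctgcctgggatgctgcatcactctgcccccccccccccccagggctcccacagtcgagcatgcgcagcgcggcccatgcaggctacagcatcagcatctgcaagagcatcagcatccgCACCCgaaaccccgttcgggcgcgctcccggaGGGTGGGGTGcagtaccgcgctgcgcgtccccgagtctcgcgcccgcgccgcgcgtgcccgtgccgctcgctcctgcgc
GGGCGG occurred 1 time before Timp2, 3 times before Adam10 (where 2 matches share a base) and 0 times before Adam23, and 32.9% of 27025 promoters of the same length held it. CACCC occurred 1, 2 and 3 times, and 51.3% of promoters held it. The AP-1 letters TGANTCA occurred in none of the 3 windows and in 6.87% of promoters. The 2 motifs marked did not overlap each other.

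**Figure D3:**
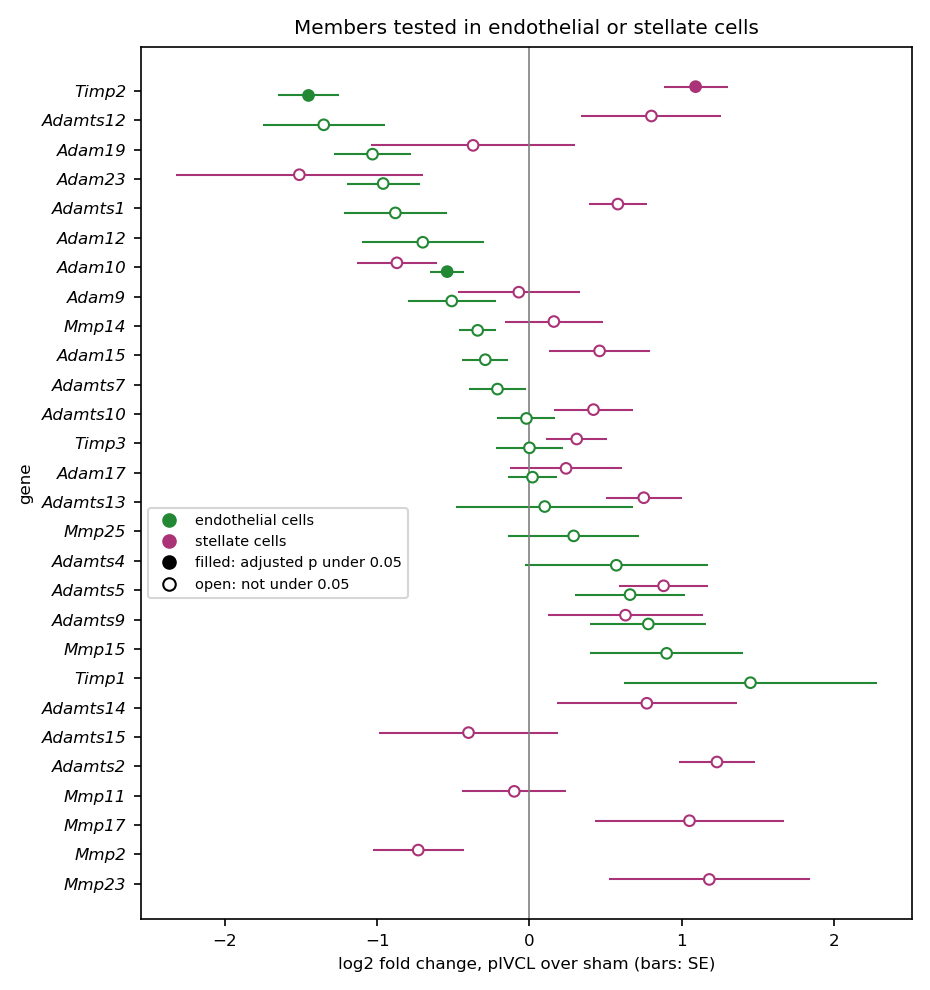
Log2 fold change of pIVCL over sham with its SE for each member tested in endothelial (green) or stellate cells (purple), ordered by the endothelial estimate, with members tested only in stellate cells at the bottom. Filled points passed at an adjusted p under 0.05: Timp2 and Adam10 in endothelial cells and Timp2 in stellate cells.

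Within endothelial cells the levels differed between clusters, which had been formed without the members. Timp2 was highest in cluster 16 (663 cells led by Adgrg6, Gja5 and Vwf, genes of large vessels), at 240 and 170 CPM in sham and 248, 300 and 168 in pIVCL, where the groups overlapped. In cluster 13 (272 cells led by Rspo3, Bmp4 and Wnt9b, genes of central veins) it was at 167 and 107 in sham and 42.4, 9.88 and 22.4 in pIVCL, without overlap. Cluster 8 (1189 cells led by Adam23 and Slc26a10) had 47.1 and 33.5 in sham and 24.4 and 11.8 in the pIVCL libraries with at least 20 cells there. Cluster 12 (1816 cells led by Kit and Wnt2) had 31.6 and 25.7 in sham and 6.75 in pIVCL 1. This cluster held 958 and 817 sham cells but 28, 12 and 1 pIVCL cells. Cluster 7 (2194 cells led by Esm1 and Angpt2), mostly of pIVCL cells, had 1.72 to 6.49 in all libraries, with overlap. Groups also overlapped in cluster 9 (1645 cells), at 7.2 and 6.06 in sham and 7.54 and 3.27 in pIVCL. In cluster 10 (959 cells) Timp2 was at 2.19 and 7.68 against 3.42, 5.28 and 7.45. In the cycling cluster 3 it was at 10 and 0 against 9.29 and 5.2, and both clusters overlapped. Timp2 thus separated by group only in clusters 8, 12 and 13. The numbers of cells in these clusters moved with the groups, and their part in the class value of Timp2 was not tested. With the cycling cluster 3 and the vessel clusters 13 and 16 left out, Timp2 was at 26.7 and 21.0 in sham and 5.94, 2.89 and 6.53 in pIVCL, with a log2 fold change of -2.36 (adjusted p = 0.00371, edgeR), a subset chosen after the data were seen.

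Adam10 in the sham libraries was highest in cluster 13 (339 and 335 CPM), and in the other clusters it was between 148 and 265. In 6 of 8 clusters (3, 8, 9, 12, 13 and 16) each sham library was above each pIVCL library with at least 20 cells. In cluster 13 the pIVCL libraries were at 172, 227 and 164. In cluster 9 Adam10 was at 187 and 190 against 141 and 118. In cluster 7 it was at 186 and 148 against 141, 152 and 139, and in cluster 10 at 177 and 207 against 158, 148 and 190, and the groups overlapped in both. Adam23 was lower in each pIVCL library with at least 20 cells than in each sham library in all 8 clusters. In cluster 10 (959 cells led by Slc45a4 and Efnb1) it was at 1054 and 1049 in sham and 1003, 880 and 859 in pIVCL. These values within clusters are a description without a test.

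**Figure D4:**
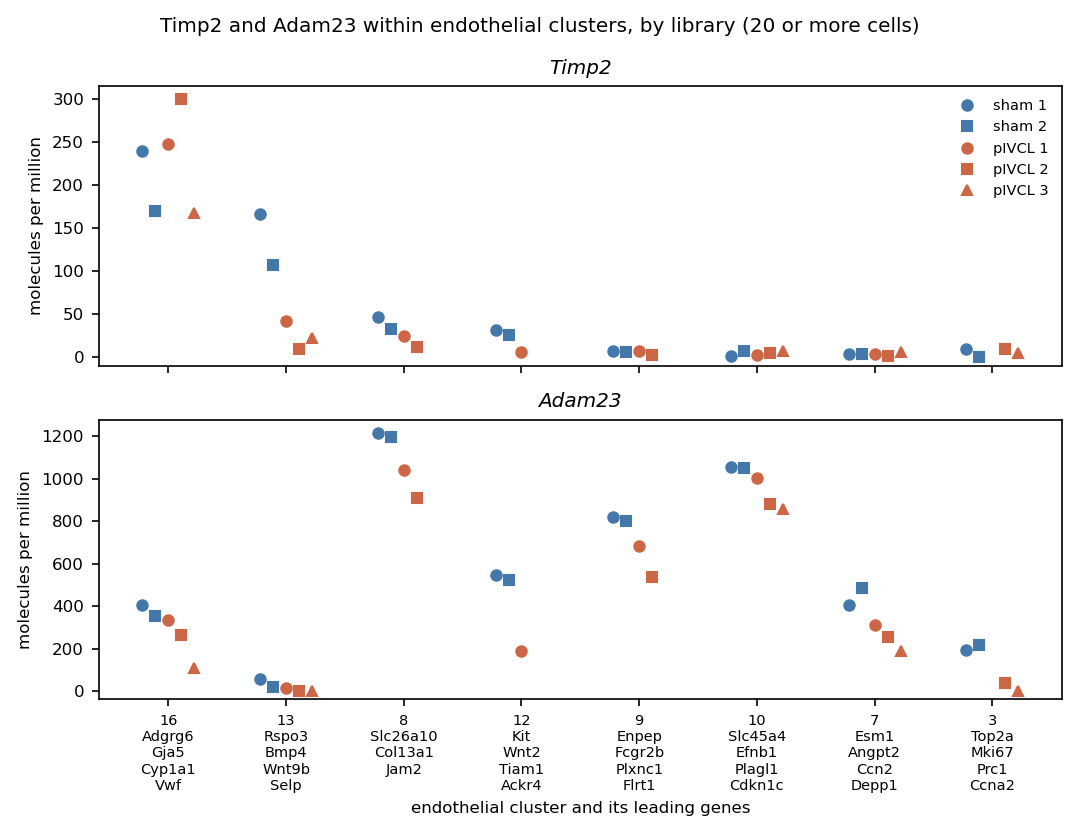
Timp2 (top) and Adam23 (bottom) in CPM within each endothelial cluster, 1 point per library with at least 20 cells of the cluster, with the cluster's leading genes below. Timp2 is highest in cluster 16, where sham and pIVCL overlap, and separates by group in cluster 13 (107 and 167 in sham, 9.88 to 42.4 in pIVCL).

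Among the other inhibitors, Timp3, which binds to the matrix and also blocks several Adam and Adamts enzymes, was highest in endothelial cells, which held 83.0% of its molecules. It was at 1355 and 1609 CPM in sham endothelial cells and at 1873, 1480 and 1084 in pIVCL (log2 fold change 0.00 ± 0.22). Its groups overlapped, and the direction of this estimate changed with the processing. Within endothelial clusters Timp3 moved both ways, described without a test. In clusters 8, 9, 10 and 12 it was higher in pIVCL without overlap, in cluster 8 at 1368 and 1499 against 2758 and 2311. In cluster 13 it was lower, at 2715 and 3201 against 1603, 636 and 649. In clusters 3, 7 and 16 the groups overlapped. In stellate cells Timp3 was at 559 and 767 in sham and at 886, 782 and 779 in pIVCL (0.31 ± 0.20, adjusted p = 0.591, edgeR). Timp1, which is strongly induced in liver fibrosis, gave 246 molecules in all files and was highest in fibroblasts, at 347 and 46.5 CPM in sham and 14.9, 19.1 and 103 in pIVCL. Those values come from 81 molecules in 108 cells. In endothelial cells Timp1 was between 0.172 and 3.02 CPM in all 5 libraries (1.45 ± 0.83, adjusted p = 0.322, edgeR). Timp4 had 6 molecules in the files. In Kupffer cells these were 1 molecule in each sham library and 0 in the 3 pIVCL libraries, too few for a comparison.

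Timp2 in its highest classes was at 2899 and 2587 CPM in sham and 2954, 3420 and 3060 in pIVCL mesothelial cells. In fibroblasts it was at 2497 and 2712 in sham and 2606, 4150 and 2153 in pIVCL. The groups overlapped in both, and fibroblasts had as few as 12 cells in a library. Stellate cells numbered 78 and 32 in sham and 275, 324 and 106 in pIVCL, and their share of the Timp2 molecules of a library was 4.28 and 1.93% in sham and 43.4, 46.3 and 23.7% in pIVCL. For Kupffer cells the share was 43.1 and 27.2% in sham and 11.1, 11.6 and 15.9% in pIVCL. When stellate cells and fibroblasts were summed as 1 class, Timp2 was at 1140.5 and 1767.5 in sham and 1164, 911 and 1084 in pIVCL, and the log2 fold change turned to -0.38 (adjusted p = 0.525, edgeR). Fibroblasts made up 19 of 97 and 41 of 73 of these cells in sham, and 20 of 295, 12 of 336 and 16 of 122 in pIVCL.

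A share of cells with a molecule was compared after thinning each cell to 1000 molecules. Timp2 was then found in 37.2 and 34.4% of sham stellate cells and in 61.1, 60.8 and 55.8% of pIVCL stellate cells. In endothelial cells it was found in 3.14 and 3.27% in sham and 1.27, 0.980 and 0.704% in pIVCL. Hepatocytes, which should lack the gene, had a share of 0 in the 4 libraries with at least 20 such cells (0 to 4% before thinning), at median depths of 1416 to 3524 molecules. T cells had 0.633 to 3.77%, at median depths of 2386 to 3330.5, and endothelial cells (4125.5 to 5150 molecules) were not above that range, so no order is read from the endothelial shares alone. Before thinning the stellate shares were 75.6 and 68.8% in sham and 92.7, 94.4 and 94.3% in pIVCL, and the endothelial ones 10.1 and 8.87% against 4.08, 2.57 and 3.93%. Only pIVCL 3 had cells too shallow to thin, 63 in all.

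The gelatinases Mmp2 and Mmp9, which cut denatured collagen and basement-membrane collagen, came from different cells. Mmp2 was at 1772 and 2422 CPM in sham fibroblasts and at 2018, 994 and 1466 in pIVCL fibroblasts. In stellate cells it was at 207 and 104 in sham and at 120, 88.3 and 81.7 in pIVCL (log2 fold change -0.73 ± 0.30, adjusted p = 0.370, edgeR). The groups overlapped, and without sham 1 the log2 fold change was -0.05. Mmp9 was at 37.2 and 41.6 in sham Kupffer cells and at 5.23, 5.49 and 15.8 in pIVCL. The Kupffer groups did not overlap, and the log2 fold change of -2.09 ± 0.37 did not pass (adjusted p = 0.115, edgeR). It passed under 5 of 14 alternatives, among them the fits without pIVCL 1 (adjusted p = 0.0455, edgeR) and without pIVCL 3 (0.0440), and the DESeq2 Wald test (0.00246). In T cells Mmp9 was at 142 and 217 in sham and 187, 112 and 180 in pIVCL (-0.19 ± 0.30), and in NK cells and ILC1 at 133 and 68.1 against 106, 9.92 and 24.6 (-1.26 ± 1.07).

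Neutrophils held the highest levels of Mmp9 and of the collagenase Mmp8, which they store in granules. Mmp8 was at 7222, 5577 and 6829 CPM and Mmp9 at 5172, 1859 and 4170 in the 4, 23 and 27 neutrophils of pIVCL 1, 2 and 3. Sham 1 had 5 such cells, with 129 and 259 CPM from 3 and 6 molecules, and with endothelial markers at 20900 CPM, against 195 to 1281 in pIVCL neutrophils. Sham 2 had 0. Whole files held 38 and 11 Mmp8 molecules in sham and 94, 568 and 401 in pIVCL. No comparison of groups within neutrophils can be made from these numbers.

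The collagenase Mmp13 and the elastase Mmp12 had their highest mean levels in macrophages other than Kupffer cells. Those held 55.6% of the Mmp13 and 36.6% of the Mmp12 molecules. Kupffer cells, which were more numerous, held 30.5% and 48.7% (19 to 77.2% by library for Mmp12). In the other macrophages Mmp12 was at 203 and 312 CPM in sham and at 72.4, 109 and 108 in pIVCL, without overlap (log2 fold change -1.39 ± 0.30, adjusted p = 0.0838, edgeR). Mmp13 was at 459 and 294 in sham and at 306, 237 and 118 in pIVCL, with overlap (-0.79 ± 0.37, adjusted p = 0.493, edgeR). None of the 9 members tested in this class passed in edgeR or in DESeq2, where 0.163% of 4907 genes passed in edgeR (0.0815% in each direction), and 4 members had an unadjusted p under 0.05 (10.3% of all genes). The groups did not overlap for 6 of these 9, against 30.1% of all genes tested. The endothelial list of 10 genes was at 378 and 323 CPM in sham and 799, 4415 and 1230 in pIVCL cells of this class, where Timp3 was at 17.9 and 35.3 against 68.4, 227 and 67.5 (2.22 ± 0.84, adjusted p = 0.426, edgeR); the part of the former in the latter was not tested. Kupffer cells held Mmp27, at 67.1 and 49.7 in sham and 44.4, 53.1 and 65.3 in pIVCL, with overlapping groups (-0.10 ± 0.20).

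Among membrane-type enzymes, Mmp14, which cuts collagen at the cell surface and activates pro-Mmp2, had its highest mean level in fibroblasts. That mean was 372 CPM, against 170 in endothelial and 122 in stellate cells. Endothelial cells, the most numerous class, held 74.8% of its molecules. Mmp14 was at 200 and 190.5 CPM in sham and at 144, 164 and 153 in pIVCL endothelial cells, without overlap (-0.34 ± 0.12, adjusted p = 0.127, edgeR). In stellate cells it was at 139 and 88.7 against 116, 100 and 183 (0.16 ± 0.32), and in macrophages other than Kupffer cells at 143 and 118 against 68.4, 81.1 and 55.0 (-0.92 ± 0.35, adjusted p = 0.327, edgeR). Mmp11 in stellate cells was at 55.1 and 31.3 against 43.6, 38.2 and 48.1 (-0.10 ± 0.34).

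The remaining sheddases were spread over many classes. Adam17, the enzyme that releases tumour necrosis factor, was at 231 and 198 CPM in sham Kupffer cells and at 216, 155 and 159 in pIVCL (-0.28 ± 0.17, adjusted p = 0.476, edgeR). In endothelial cells it was at 71.5 and 67.0 against 80.0, 73.2 and 55.8 (0.02 ± 0.16). Both comparisons overlapped. Adam19 was highest in T cells, at 105 and 142 in sham and 167, 92.1 and 113 in pIVCL (-0.02 ± 0.30). In endothelial cells it was at 38.9 and 24.1 against 12.2, 18.1 and 16.2, without overlap, and just missed the threshold (-1.03 ± 0.25, adjusted p = 0.0532, edgeR). Adam15 in endothelial cells was at 117 and 100.1 against 78.3, 85.2 and 104.5 (-0.29 ± 0.15), and Adam9 in macrophages other than Kupffer cells at 83.5 and 106 against 92.6, 43.5 and 65.0 (-0.55 ± 0.41). Adam8 was highest among tested classes in conventional dendritic cells, at 157 and 145 in sham and 111.5, 110.1 and 106 in pIVCL, without overlap (-0.47 ± 0.24, adjusted p = 0.523, edgeR).

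Most Adamts genes had their highest mean level in stellate cells or fibroblasts. Endothelial cells, the most numerous class, still held 60.2% of the Adamts1, 76.5% of the Adamts4, 83.7% of the Adamts7 and 44% of the Adamts10 molecules. For Adamts2 and Adamts5 they held 1.16% and 11.7%. Adamts2, an enzyme that removes the amino-terminal propeptide of fibrillar procollagens, was at 165 and 99.2 CPM in sham stellate cells and at 282, 325 and 354 in pIVCL. The groups did not overlap, and the log2 fold change of 1.23 ± 0.25 missed the threshold (adjusted p = 0.0601, edgeR). The proteoglycanase Adamts5 was at 213 and 214 in sham and 551, 327 and 298 in pIVCL (0.88 ± 0.29, adjusted p = 0.232, edgeR), with pIVCL 1 the highest library. Its log2 fold change was 0.57 without pIVCL 1 and 1.38 within batch 2021.3, where pIVCL 1 is the ligated library. Adamts2 and Adamts5 had higher mean levels in fibroblasts (649 and 1314 CPM) than in stellate cells (236 and 310). Fibroblast markers were higher in pIVCL stellate cells (17822 to 23075 CPM against 15472 and 10506 in sham). Their part in the Adamts2 and Adamts5 values was not tested. Adamts13, which cuts von Willebrand factor and is made by stellate cells, was at 173 and 104 in sham and 259, 228 and 232 in pIVCL (0.75 ± 0.25, adjusted p = 0.238, edgeR). Stellate cells held 82.0% of its molecules over all libraries. By library the share was 50.4 and 32.8% in sham and 88.4, 91.4 and 87.3% in pIVCL, where stellate cells were more numerous.

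Adamts1, a proteoglycanase, was at 554 and 543 CPM in sham stellate cells and at 896, 852 and 716 in pIVCL, without overlap (0.58 ± 0.19, adjusted p = 0.241, edgeR). In endothelial cells it was at 144 and 284 against 143, 128 and 76.7 (-0.88 ± 0.34, adjusted p = 0.183, edgeR). The difference of its effect between stellate and endothelial cells was 1.44 ± 0.30 and did not pass (adjusted p = 0.0742, edgeR). Without sham 2, the library at 284, its endothelial log2 fold change was -0.32. Adamts9 in stellate cells was at 73.5 and 10.4 against 97.6, 63.9 and 64.1 (0.63 ± 0.51), Adamts10 at 60.4 and 67.8 against 83.3, 85.9 and 84.9 (0.42 ± 0.26), and Adamts12 at 34.1 and 10.4 against 36.5, 41.2 and 57.7 (0.80 ± 0.46). Adamts14, a further procollagen enzyme, was highest in NK cells and ILC1, at 63.3 and 112 CPM in sham and 74.1, 57.9 and 56.8 in pIVCL, from 43 molecules. In stellate cells the groups did not overlap for 13 of 22 tested members, where 34.2% of all tested genes did not. In endothelial cells this held for 8 of 21 members, below the 43.7% of all genes. Kupffer cells had 8 of 17 members without overlap, against 31.8% of all genes, and conventional dendritic cells 2 of 10, against 27.4%. T cells had 2 of 10, against 20.9%, and NK cells and ILC1 0 of 3, against 23.6%.

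In T cells (10 members tested) and in NK cells and ILC1 (3 tested) no member passed in edgeR or DESeq2, and 0% of all genes passed in edgeR in either class. No member had an unadjusted p under 0.05 either, but only 4.58% of all genes did in T cells and 6.58% in NK cells and ILC1, so with so few members this count says little. On simulated counts with the spread of these classes, the test recovered 19.7% of 4-fold changes in T cells and 69.7% in NK cells and ILC1, against 84.8% in endothelial and 62.1% in stellate cells. For 2-fold changes it recovered 46.3% in endothelial, 47.8% in Kupffer and 5.97% in stellate cells. Genes simulated without a change were 5 of 18 calls in T cells, 14 of 110 in Kupffer cells and 8 of 61 in other macrophages. They were 4 of 65 in NK cells and ILC1, 4 of 70 in dendritic, 5 of 97 in endothelial and 2 of 47 in stellate cells.

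Other genes of the pathway were counted from 4 lists. These were chosen with earlier results of these data known, so the counts are a description and not independent evidence. Of the matrix substrates, 7 of 18 tested passed in stellate cells, all higher: Col3a1, Col4a1, Col4a2, Lamc1, Nid2, Sparc and Tnc. Of all 8037 genes tested there, 0.585% passed higher. Col4a1, a basement-membrane collagen chain, was at 1425 and 1018 CPM in sham and at 2509, 3237 and 3778 in pIVCL stellate cells (1.37 ± 0.24, adjusted p = 0.0314, edgeR). The list's median log2 fold change was 1.03 in stellate cells, 0.64 in endothelial cells, 1.35 in T cells and 2.17 in macrophages other than Kupffer cells, where the medians over all genes were 0, 0, 0.02 and 0.01. In those macrophages the endothelial markers were also higher in pIVCL (378 and 323 CPM against 799, 4415 and 1230), as they were in T cells of pIVCL 2 (6220 CPM, against 257 to 3135 in the other T cell libraries), and their part in these medians was not tested. In T cells 0 of 9 and in those macrophages 0 of 6 passed in edgeR. Lamc1, a laminin chain, was the 1 of 18 that passed in endothelial cells, higher (1.12 ± 0.15, adjusted p = 0.00843, edgeR), a count near the 5.3% of all genes that passed there.

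Of matrix-degrading enzymes of other families and their inhibitors, 3 of 15 passed higher and 3 lower in endothelial cells. Of all genes tested there, 2.63% passed higher and 2.67% lower. Plau, the urokinase that activates plasmin, was at 64.6 and 47.2 CPM in sham and at 252, 334 and 391 in pIVCL endothelial cells (2.54 ± 0.23, adjusted p = 0.00201, edgeR). Its receptor Plaur and the lysosomal protease Ctsl also rose, while Plat, Hpse (heparanase) and Hyal2 fell. Plau was among the leading genes of endothelial cluster 7, which held 45 and 50 sham cells and 722, 923 and 454 pIVCL cells. The part of such shifts between clusters in the endothelial values of this paragraph was not tested. In stellate cells 1 of 15 passed, the serine protease Prss23, higher (1.24 ± 0.21, adjusted p = 0.0292, edgeR), and in macrophages other than Kupffer cells 1 of 8, Ctsl, higher (2.03 ± 0.38, adjusted p = 0.0284, edgeR). Of all genes tested, 0.585% passed higher in stellate cells and 0.0815% in those macrophages. Of regulators of metalloproteinases, 1 of 15 passed in endothelial cells, again near the 5.3% of all genes: Frmd8, a stabiliser of the complex that matures Adam17, was higher (0.59 ± 0.13, adjusted p = 0.0388, edgeR). Of shed substrates, 2 of 18 passed there, beside the same 5.3% of all genes. Hbegf, a growth factor released by sheddases, was lower (-1.47 ± 0.21, adjusted p = 0.0101, edgeR) and Icam1, an adhesion receptor, higher (0.64 ± 0.15, adjusted p = 0.0444, edgeR). In Kupffer cells 1 of 16 passed, Vcam1, at 426 and 457 in sham and 990, 1225 and 1046 in pIVCL (1.30 ± 0.14, adjusted p = 0.0325, edgeR). Of all genes tested in that class, 0.0509% passed higher.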

How the data were processed

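RNA of liver non-parenchymal cells was counted per gene and cell in 5 libraries. The deposited values are raw counts of molecules per gene and cell, with errors in the molecular identifiers already corrected. The authors used the BD WTA Rhapsody Analysis Pipeline 1.9.1 with GRCm39, per the submitters' processing notes. Which aligner it ran is not given in the sources used here. The libraries held 12448260 to 30523228 molecules and 2680 to 5000 cells. Counting error is largest for members with few molecules, whose number is given.

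Cells with under 500 molecules, under 200 genes or over 25% mitochondrial molecules were left out, and the top 3% of doublet scores per library were removed. No correction for free RNA was made. Clustering used scanpy 1.11.5 (2000 variable genes without the members, 30 components, 20 neighbours, resolution 1), and classes were named from marker lists. Clusters with markers of a second class stayed unnamed. Counts were summed per class and library and compared with edgeR 4.0.16 (R 4.3.3, quasi-likelihood test, TMM, filterByExpr), adjusted by Benjamini-Hochberg over all genes tested in a class at 0.05. Interactions between classes used library as a block. TMM-scaled values are given where groups are compared by a fit, and plain CPM for clusters, subsets and classes that were not tested. Fits that leave out a sham library assume that the remaining one varies like the pIVCL libraries. The test was tested on simulated data.

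The members and lists were chosen with earlier results of these data known. Values in every library are given for members that passed, all Timp genes and members with a mean of at least 30 CPM in a tested class. Correlations of same-numbered libraries, as deviations from group means, were between -0.61 and 0.136 over 7 classes. With 2 sham libraries these deviations mirror each other, so the correlations of numbers 1 and 2 are not independent checks. They cannot decide whether the replicate numbers pair libraries, and the main fits did not pair them. Alternatives are DESeq2 1.42.0 size factors and Wald test, no filter, replicate block, batch, left-out libraries, doublets kept, stricter cell filter, resolution 2 and summed stellate cells and fibroblasts.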

Additional observations from a re-analysis of the deposited data

Results flagged for a closer look

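The effect of pIVCL on Timp2 differed between cell classes by a test of the difference itself. On the log2 scale it was higher in stellate than in endothelial cells by 2.60 ± 0.20 (adjusted p = 1.8e-07, edgeR), higher in Kupffer than in endothelial cells by 1.04 ± 0.15 (adjusted p = 0.0176, edgeR) and higher in stellate than in Kupffer cells by 1.57 ± 0.22 (adjusted p = 0.00243, edgeR). All 3 pIVCL libraries were above both sham libraries in stellate cells and below both in endothelial and Kupffer cells. Groups of 2 and 3 libraries are too small for the check of single libraries that stand apart.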

How the results depend on the processing

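Timp2 kept its direction in endothelial cells under 15 of 15 alternatives and passed under 13, and Adam10 passed under 9 of 15 there with the same direction in all. Timp2 in stellate cells kept its direction under 13 of 14 and passed under 8. The fit in batch 2021.3 alone, counted in each, has 1 ligated library, so its spread comes from the sham libraries and its calls support nothing. With batch as a term, the effect likewise comes from the libraries of batch 2021.3, with pIVCL 1 as the ligated one. With the replicate block, pIVCL 3 has no partner and adds nothing to the effect. Calls gained under these fits are given as a description only. Counts of members by setting are a description too, because the share of all genes called is given only for edgeR's main fits and DESeq2. In DESeq2 7.93% of 12164 genes passed in endothelial cells and 1.53% of 7919 in stellate cells, against 5.3% and 0.759% in edgeR. In dendritic cells 0.185% of 8650 genes passed in DESeq2. More members called under a setting is therefore not read as a result about the members. The number of members called in endothelial cells (2) was 7 without a filter on low counts, 5 in DESeq2, 1 with the replicate block or batch as a term, 4 without large-vessel and cycling clusters, and 0 to 8 without a library. In stellate cells (1) it was 3, 2, 4 with the block, 4 with batch as a term or in batch 2021.3 alone, 0 at resolution 2 and 0 to 2 without a library. Kupffer cells (0) had 4 without a filter, 1 in DESeq2, 1 with the block and 0 to 3 without a library. Other macrophages (0) had 2 without a filter, 2 with the block, 1 in batch 2021.3 alone, 1 at resolution 2 and 0 to 1 without a library. Dendritic cells (1) had 2 without a filter, 0 in DESeq2, 0 with batch as a term and 0 to 1 without a library. NK cells and ILC1 (0) had 1 without a filter and 0 to 1 without a library. With the replicate block, Adamts2 (1.17) and Adamts5 (1.02) passed in stellate cells, Mmp9 (-2.87) in Kupffer cells and Mmp12 (-1.50) in other macrophages, and Adam10 in endothelial cells (-0.50, adjusted p = 0.18, edgeR) did not. Members whose effect differed between classes (1 in each pair) numbered 1 to 2, 0 to 1 and 0 to 1 without a library for stellate against endothelial, Kupffer against endothelial and stellate against Kupffer. Summing stellate cells and fibroblasts turned the log2 fold changes of Timp2 (-0.38), Adamts2 (-0.33), Adamts5 (-0.23) and Timp3 (-0.33), and the 1 member then called was Mmp19. Timp3 in endothelial cells was at 0.01 with DESeq2 size factors, 0.17 with the block, 0.34 with batch as a term, 0.33 in batch 2021.3, 0.03 with stricter cells, 0.15 without large-vessel and cycling clusters and -0.20 to 0.19 without a library. Mean Timp2 shares without thinning were 9.47 and 3.53% in endothelial and 72.2 and 93.8% in stellate cells, sham first. The cause of these changes was not tested. Stellate cells had no fit with doublets kept, since the clusters led by stellate markers also held markers of a second class and stayed unnamed. The largest of these clusters held 879 cells, with endothelial markers as the second class. With stricter cells, stellate cells and NK cells and ILC1 had no fit. Sham 2 held 19 of the former and sham 1 held 10 of the latter, too few for a test. No test was run for fibroblasts, monocytes or B cells.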
